A study of Homo sapiens with 10 samples.

Results

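The regions described here are the 296 intervals on chromosome 1 in a deposited list of 3227 ANRIL peaks on hg19, or 9.17% of that list. They were chosen by chromosome alone. The list comes from ChIRP-seq (chromatin isolation by RNA purification), in which biotinylated oligos complementary to an RNA fish it out of sheared chromatin and the DNA that comes along is sequenced. All 10 samples were untreated HEK293 cells, an established line from human embryonic kidney that is known to be aneuploid, with segments of its chromosomes present in unequal copy numbers. Copy number was not analysed here. Per the labels, ANRIL oligos gave 4 samples, an even and an odd pool for each of 2 replicates. Oligos for LacZ, a gene of bacteria that human cells lack, gave another 4, and the other 2 samples were input. The labels give 45 M paired-end reads of 43 bp per sample and do not say whether the replicates were separate cultures.

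ANRIL is a long non-coding RNA transcribed from chromosome 9, antisense to the cell cycle inhibitor gene CDKN2B. It is known to bind Polycomb proteins, which silence genes by modifying histones. It represses its neighbour genes in cis, and in trans it alters the expression of genes on other chromosomes. Chromosome 1 does not carry the ANRIL gene, so all of these intervals lie away from the RNA's own gene.

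Each interval has 1 fold (ANRIL signal over its local expectation) and 1 score (10 times the −log10 q, rounded down), both the authors' own. Samples have no values of their own in the list, so the spread between replicates is unknown at every peak. The 95% intervals below cover the counting of peaks, or the position of a median among peaks, and nothing else. Levels in LacZ and input were not analysed here, and no gene, exon or intron was assigned to a peak because no hg19 annotation was used.

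With all 24 chromosomes counted, chromosome 1 held slightly more peaks than its length predicts, an excess that did not hold without chromosome Y. Of its peaks, 44.9% lay in a single dense stretch near the end of its long arm. Its 296 peaks were 1.14 times the 260 expected from its 8.05% of the genome's length (exact 95% interval 1.02 to 1.27). The adjusted p was 0.0259 in a two-sided exact binomial test, with p-values adjusted over 24 chromosomes by Benjamini-Hochberg. In that test 29.2% of chromosomes (7 of 24) stood above their share, so an excess was not unusual in this list. Chromosome Y held 2 peaks against 61.9 expected, and counting its length lowers the share expected of every other chromosome. Without chromosome Y the ratio was 1.12 (0.999 to 1.25), no longer past the threshold of 0.05 (same exact test, adjusted p = 0.0537). The test takes peaks as independent, which their uneven spacing does not bear out.

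The dense stretch spans 21 Mb. Its first peak starts at position 224348541 and its last ends at 244811984. Without it the remaining 163 peaks were 0.71 times their share of length. The stretch was picked for its density in these same peaks and taken out of chromosome 1 alone, so a lower ratio was fixed by that choice and is given with no test. Chromosome X holds 23.4% of the list, and with both the stretch and chromosome X left out, an alternative chosen after seeing the data, the ratio was 0.891. With protein-coding genes per chromosome as the expected share, the whole chromosome stood at 0.891 times (adjusted p = 0.0443, same exact test).

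The long arm was about 2 times as dense as the short arm. The short arm held 96 peaks, or 0.768 per Mb (exact Poisson 95% interval 0.622 to 0.938). The long arm held 200, or 1.61 per Mb (1.39 to 1.85). The ratio of long to short arm was 2.10 (1.64 to 2.70). The dense stretch made up 66.5% of the long arm's peaks. Outside it, the long arm had 67 peaks at 0.649 per Mb, which was 0.845 times the density of the short arm (0.609 to 1.17), an interval that includes equal density.

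In bins of 5 Mb the chromosome was low and patchy up to the dense stretch. The 4 full bins inside the stretch held 31, 31, 34 and 33 peaks in order of position. The other 45 full bins held between 0 and 9 peaks, with a median of 3. No other bin therefore reached a level near those 4. Bins with 9 peaks lay from 20 Mb, from 70 Mb and from 220 Mb on, and the last of these includes the first Mb of the stretch. Over the whole genome, 609 full bins had a median of 3 peaks and a highest count of 55. Of these, 20 bins (4 of chromosome 1, 13 of chromosome X and 3 of chromosome 19) held at least 31.

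**Figure D1:**
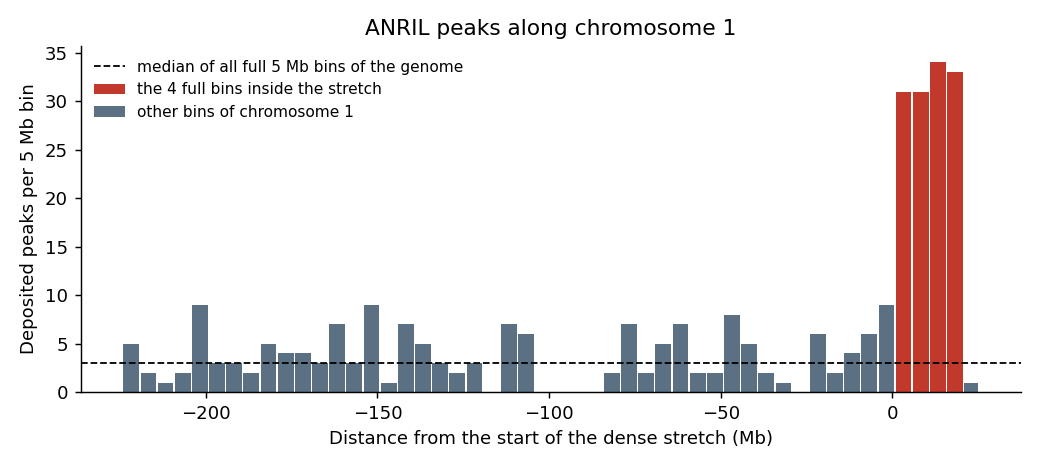
Deposited ANRIL peaks per 5 Mb bin of chromosome 1, against the distance of each bin from the start of the dense stretch in Mb. The bars of the 4 full bins inside the stretch reach 31 to 34 peaks, the other full bins 0 to 9, and the dashed line marks the genome's median of 3.

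Of the 45 other full bins, 6 were empty. A run of 4 of these lay from 120 to 140 Mb, around the centromere. Assembly gaps were not left out of any bin. The gap between neighbouring peaks there was 25.8 Mb, from position 119150559 to 144912576. The other empty bins were at 105 to 110 Mb and 195 to 200 Mb. The second longest gap, 9.21 Mb between positions 191594483 and 200808176, held no peak of the list.

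The peak names give a view of what was called before filtering. Numbers inside the names rise with position along chromosome 1, from 6 to 4789, and the next number in the list, 4794, is on another chromosome. If they count every call in order, 4784 to 4793 peaks were called on chromosome 1, and the 293 names in the list are 6.11% to 6.12% of them. Across the 25.8 Mb gap at the centromere the numbers skip 26 calls. Across the gap of 9.21 Mb they skip 178. On that reading, the first gap had few calls for its length, in which assembly gaps are counted. The second had calls, and none of them is in the deposited list. No source here states which replicate's calls the numbers count.

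The dense stretch held 133 peaks, 44.9% of the chromosome's peaks (exact 95% interval 39.2 to 50.8%) on 8.43% of its length. Its density was 6.33 per Mb (5.30 to 7.51), against 0.714 per Mb (0.609 to 0.833) on the rest of the chromosome. The ratio was 8.87 (7.0 to 11.2). The stretch was singled out for its density in these same peaks, so the ratio is a description. Against the 20 Mb just before it, which held 19 peaks, the ratio was 6.67 (4.11 to 11.4).

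Inside the stretch the peaks were spread over its whole length and did not pile up at 1 place. Each of its 21 bins of 1 Mb held at least 1 peak. The median was 6 and the highest was 12, reached from 237 to 238 Mb and from 240 to 241 Mb. The lowest was 1, from 233 to 234 Mb, and that bin's only peak had the fourth highest score of the chromosome. Of the 20 bins of 1 Mb before the stretch, 7 were empty and the highest held 4.

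Peak counts per Mb were higher just inside both edges than just outside, though the counts are small. The stretch was picked for its density in these same peaks, so a step at its edges follows from that choice. In bins of 1 Mb, the last 2 before the stretch held 1 and 2 peaks, and the first 4 inside it 4, 5, 7 and 3. At the far end the last bin inside held 6, the next 1, and those after it 0. The last peak before the stretch was at chr1:223926271-223926504, with a fold of 3.97 at score 28. The first inside was at chr1:224348541-224348956, with a fold of 3.32 at score 20. At the far end, the last peak inside was at chr1:244811665-244811984, with a fold of 3.79 at score 35. A single peak followed at chr1:245233885-245234135, with a fold of 3.18 at score 17. The final 4.02 Mb of the chromosome held none.

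The numbers inside the names also place edges in the calls before filtering. Between the kept peaks that end at 222388224 and start at 223209714, they skip 9 calls, or 10.96 per Mb. In the next gap, up to 223926271, they skip 39, or 54.5 per Mb. In the gap after that, up to 224348541, they skip 14, or 33.2 per Mb. At the far end they skip 17 calls between the last peak inside the stretch and the single peak after it, or 40.3 per Mb. Beyond that peak at most 4 calls remained in the final 4.02 Mb. In the calls, the rise thus lay just before the last peak outside the stretch, and the drop lay after the single peak that follows it.

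The step was smaller in calls than in kept peaks. Before the stretch there were 15.3 to 15.4 calls per Mb, and in the stretch 62.7 to 64.1, a ratio of 4.06 to 4.18. The same 2 parts had 0.723 and 6.33 kept peaks per Mb, a ratio of 8.76. Of the calls before the stretch, 4.63% to 4.66% were kept, and of those in the stretch 9.80% to 10.03%. If the numbers count every call, calls in the stretch were both more frequent and more often kept. The stretch was picked for its density of kept peaks, which are also counted among the calls. That choice favours a higher kept share and a higher call density there, so these values are a description.

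**Figure D2:**
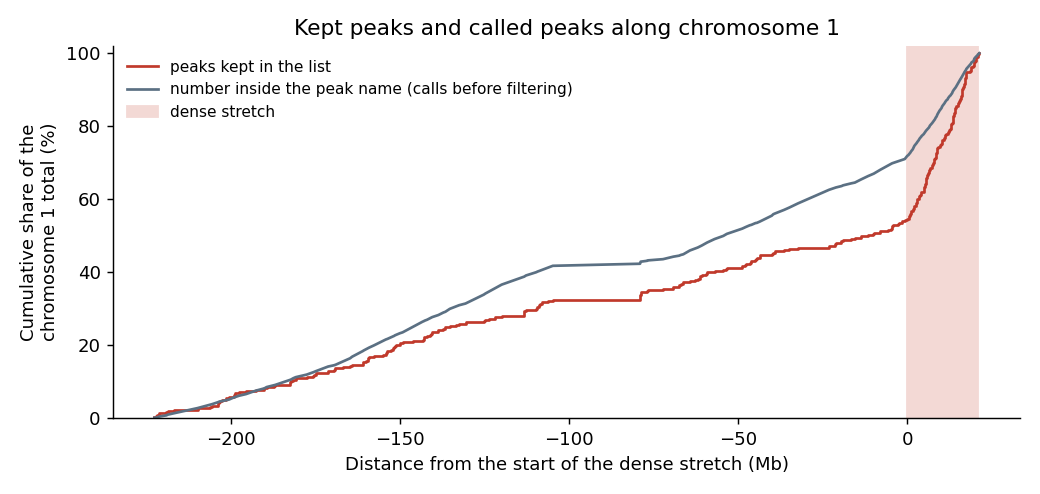
Cumulative share of kept peaks (red) and of calls before filtering, read from the numbers inside peak names (grey), in percent of the chromosome 1 total, against distance from the start of the dense stretch in Mb. Both curves steepen at the shaded stretch, which holds 44.9% of the kept intervals, and both are flat across the 25.8 Mb gap at the centromere.

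Neighbouring peaks in the stretch were a median of 97.7 kb apart (95% interval 80.1 to 129 kb, 131 gaps). On the rest of the chromosome the median gap was 775 kb (571 to 1019 kb, 159 gaps). The widest gap in the stretch was 1168 kb and the only one above 1 Mb there. The rest had 67 such gaps. In the stretch 7 gaps were 10 kb or shorter, the shortest 2.16 kb. None was that short on the rest, where the shortest was 10.97 kb. The stretch was picked for its density, so shorter gaps there follow from that choice.

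Local clusters, taken as 3 or more named peaks each within 50 kb of the next, were few. Chromosome 1 had 7 of them, holding 24 of its 293 names, or 8.19% (exact 95% interval 5.32 to 11.9%), against 10.1% for the whole list (9.08 to 11.2%). The stretch had 5 clusters with 16 of its 132 names, or 12.1% (7.09 to 18.9%). The rest had 2 clusters with 8 of 161 names, or 4.97% (2.17 to 9.56%). In the stretch, 66 of 132 names had a neighbour within 50 kb (50%, exact 95% interval 41.2 to 58.8%). On the rest 12 of 161 did (7.45%, 3.91 to 12.7%). Closer neighbours follow from the density for which the stretch was picked, so this contrast is not a separate trait of it. The share in clusters moves with the definition: it was 1.37% with a gap of 20 kb and 23.5% with a gap of 100 kb.

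The largest cluster lay just past the 25.8 Mb gap without peaks and not in the dense stretch. It spanned 126 kb from 144992548 to 145118384, with 5 named peaks in 6 intervals. The first, chr1:144992548-144992821, had a fold of 2.96 at score 24. The second name was split into 2 pieces, chr1:145018535-145018805 and chr1:145019543-145019937, which share a fold of 2.63 at score 16.

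The third peak of the cluster, chr1:145030903-145031891, had a fold of 2.92 at score 21. The fourth, chr1:145069896-145070348, had a fold of 2.59 at score 16. The fifth, chr1:145117830-145118384, had a fold of 2.62 at score 27. All folds of this cluster lay under 3, and 4 of its intervals are among the 5 with the lowest folds of the chromosome.

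This cluster also stood apart in the coverage expected at its peaks. That value was estimated from each peak's fold and p, as the expectation at which a Poisson upper tail gives that p, with fold as pileup plus 1 over expectation plus 1. It is not independent of fold and p, and no source here states that these formulas were used. Estimated expected coverage was 5.41 to 10.0 in the 6 intervals of the cluster, against a median of 2.26 (95% interval 2.20 to 2.32) on all of the chromosome outside the stretch. How far coverage goes with the folds or the spacing of this cluster was not tested.

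The second cluster, in the dense stretch, had 4 peaks in 40.7 kb from 237324202 to 237364890. Their folds were 3.55, 4.44, 3.70 and 3.44 and their scores 28, 45, 27 and 23, in order of position. The numbers inside its names run over 7 calls, so 4 of 7 calls there were kept. Of the 5 clusters with 3 peaks, the one with the shortest span, from 226795718 to 226841657, had folds of 3.42, 3.09 and 3.89 and scores of 21, 21 and 31. On the short arm the only cluster was from 110503189 to 110567679, with 3 peaks at a median fold of 4.29.

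Chromosome 1 carried the 2 highest scores of the whole list, and the next of its peaks was tied for rank 3. The highest score of all 3227 intervals was 108, at chr1:234163782-234164416, with a fold of 6.72 over 635 bp. The next was 106, at chr1:235866719-235867244, with a fold of 6.56 over 526 bp. Both lay in the dense stretch, 1.70 Mb apart. The next, at chr1:184696537-184696833, had a score of 93 and a fold of 5.75 and lay far outside it, on the long arm.

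The other peaks among the 10 highest scores were split between the stretch and the rest. In the stretch, chr1:233497018-233498005 had a score of 75 and a fold of 5.40. Also there were chr1:231697577-231697908, with a score of 62 and a fold of 5.0, and chr1:236842217-236842915, with a score of 54 and a fold of 4.54. The peak at chr1:240774980-240775002 had a score of 56 and a fold of 4.66 in an interval of only 23 bp. Widths here are those after intersection and the step on blacklisted regions, and the widths of the original calls are not in the list.

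Outside the stretch, chr1:166976351-166976891 had a score of 69 and a fold of 5.70. The only one of the 10 on the short arm was chr1:90386092-90386479, with a score of 65 and a fold of 5.83. The last, chr1:161135968-161136297, had a score of 55 and a fold of 5.40. The stretch thus held 6 of the 10 and the rest of the chromosome 4.

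A score of 45 or more, that of rank 100 in the whole list, was reached by 107 intervals, ties included. Of these, 16 were on chromosome 1 and 10 of those in the stretch. The chromosome makes up 9.17% of the list and the stretch 4.12%. Scores of 30 or more were reached by 38 of 133 peaks in the stretch, or 28.6% (exact 95% interval 21.1 to 37.0%). The rest of the chromosome had 31 of 163, or 19.02% (13.3 to 25.9%), and the whole list had 17.4%. The intervals of the 2 parts overlap. At that score setting the density ratio of stretch to rest was 13.3, against 8.87 for all peaks.

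Median scores were equal in the 2 parts. The median score was 22 in the stretch (95% interval 21 to 26) and 22 on the rest (21 to 23). On chromosome 1, 107 peaks (36.1%) had a q above 0.01, and in the whole list 42.5% did. In both parts the lowest score was 16, where the filter set in.

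The median fold was lower in the dense stretch than on the rest. The stretch had folds from 2.57 to 6.72 with a median of 3.41 (95% interval 3.30 to 3.53). The rest had folds from 2.59 to 5.83 with a median of 3.65 (3.57 to 3.72). The 2 ranges overlap almost wholly, while the intervals of the medians do not. With score held nearly equal, at 16 to 18, the median fold was 3.10 in the stretch (3.01 to 3.13, 38 peaks) and 3.37 on the rest (3.33 to 3.43, 49 peaks). At scores of 30 or more it was 4.07 (3.87 to 4.24) and 4.38 (4.28 to 4.48). The lower median was thus present at both ends of the score range. Peaks are not replicates, and these medians were not tested against each other.

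**Figure D3:**
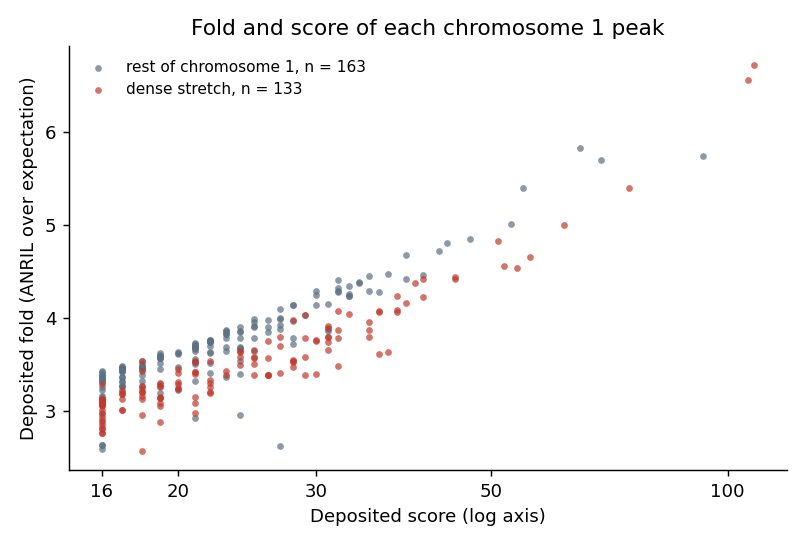
Deposited fold against deposited score (log axis) for each peak of chromosome 1, with the 133 peaks of the dense stretch in red and the other 163 in grey. At scores of 16 to 18 the median fold was 3.10 in the stretch and 3.37 on the rest, and the 2 points at the upper right are the peaks with scores of 108 and 106.

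Estimated expected coverage was higher in the dense stretch than on the rest. Its median was 3.24 in the stretch (95% interval 3.16 to 3.43) and 2.26 on the rest (2.20 to 2.32). The lowest value in the whole list was 2.08. On the rest of the chromosome 115 of 163 peaks (70.6%) lay within 20% of that minimum, and in the stretch 6 of 133 (4.51%). The level was raised along the whole stretch: the 4 full bins of 5 Mb inside it had medians of 3.15, 3.17, 3.28 and 3.34. Most bins wholly outside it had medians of 2.09 to 2.81. Exceptions were the bin at 100 to 105 Mb, with 3.004, and the 2 bins from 140 to 150 Mb, with 4.42 and 5.71. At the chromosome's end a single peak had 2.98. The bin at 220 to 225 Mb, which includes the first Mb of the stretch, had 2.93. The medians from 140 to 150 Mb rest on 2 and 7 intervals, most of them in the largest cluster. This coverage exists only at kept peaks and comes from their fold and p. It therefore cannot rank whole bins by coverage, and it is not a measure separate from the lower folds. How much of the density, of the higher kept share or of the lower folds goes with coverage was not tested.

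**Figure D4:**
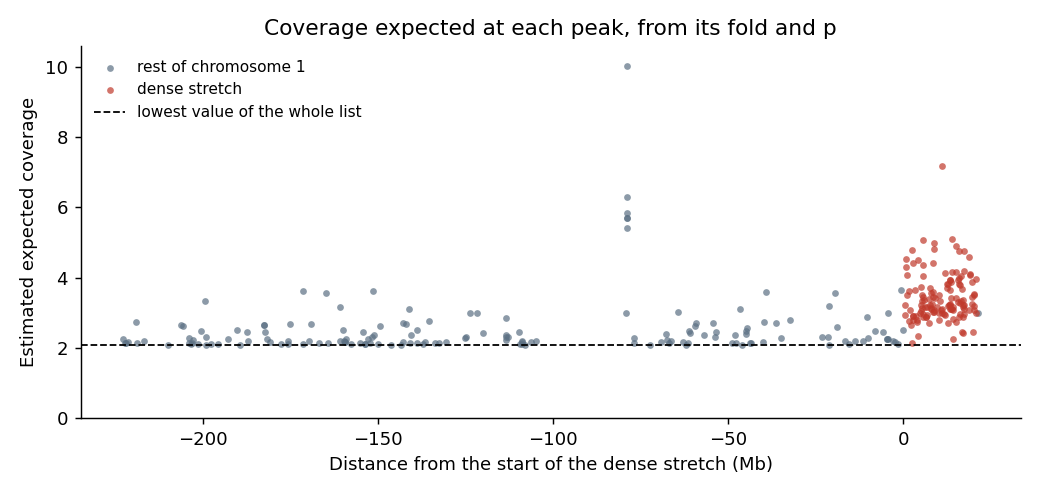
Coverage expected at each chromosome 1 peak, estimated from its fold and p, against distance from the start of the dense stretch in Mb. Peaks of the stretch (red) have a median of 3.24, most others (grey) sit near the dashed line at the list's minimum of 2.08, and the column of high grey points is the cluster just past the 25.8 Mb gap.

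Most low folds lay in the dense stretch and from 140 to 150 Mb. Estimated expected coverage was raised in both, but it was computed from fold and p. Its overlap with low folds is therefore partly fixed by construction. Chromosome 1 had 20 peaks with a fold under 3, or 6.76%, close to the 6.51% of the whole list. The share was 9.77% in the stretch, against 13.04% and 16.7% in dense segments of chromosomes 19 and X. Of the 20, 13 lay in the stretch, 6 from 140 to 150 Mb and 1 elsewhere, and none on the short arm, where the lowest fold was 3.07. The lowest of the chromosome was 2.57, at chr1:234912429-234912606 in the stretch, with a score of 18 and an estimated expected coverage of 7.17.

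Peaks of the stretch also had a higher median width. It was 376 bp (95% interval 347 to 415 bp), against 302 bp (286 to 336 bp) on the rest. Among peaks with scores of 16 to 18 the medians were 327 bp (248 to 376 bp) and 285 bp (264 to 357 bp), and these intervals overlap. Together the stretch's intervals covered 57.6 kb, or 0.274% of its length, and those of the rest covered 58.2 kb, or 0.0255%.

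The widest interval of chromosome 1 was 1675 bp at chr1:235456509-235458183, with a fold of 3.30 at score 19. The second, 1487 bp at chr1:243617996-243619482, had a fold of 4.23 at score 41. Both were in the stretch. The third, 1399 bp at chr1:213699469-213700867, had a fold of 3.64 at score 25. The next pair were 1241 bp each. One was on the short arm at chr1:110545378-110546618, with a fold of 4.81 at score 44, and belongs to the cluster there. The other was in the stretch at chr1:240102919-240104159, with a fold of 3.12 at score 16. Of these 5 intervals, 2 had scores above 40, and the other 3 had scores of 25 or less. Across the 296 peaks, which share libraries, width had a Spearman's rho of 0.09 with fold and 0.23 with score. Between width and fold it was 0.28 in the stretch and 0.06 on the rest.

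**Figure D5:**
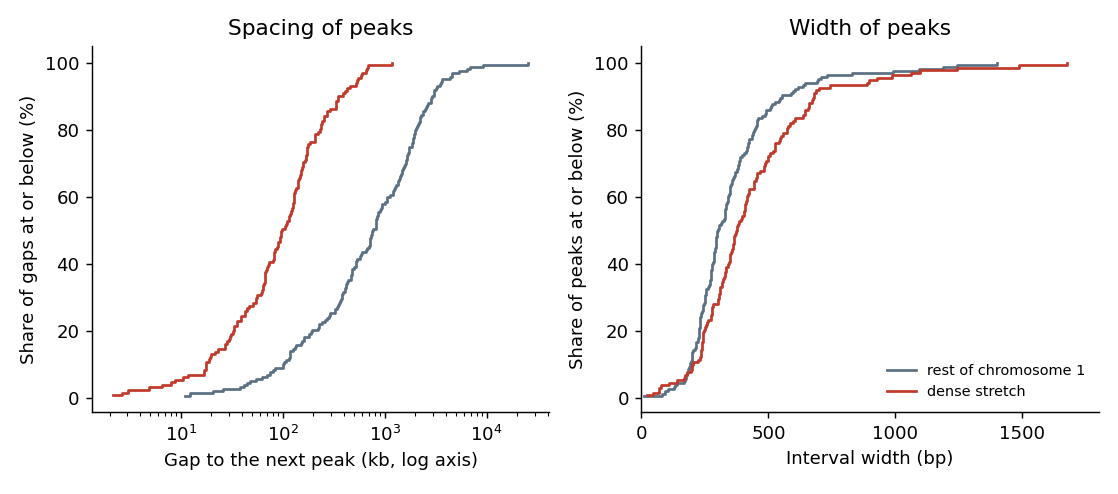
Left, cumulative share of gaps between neighbouring peaks by gap length (kb, log axis), and right, cumulative share of peaks by width (bp), for the dense stretch (red) and the rest of chromosome 1 (grey). The median gap was 97.7 kb in the stretch and 775 kb on the rest, and the median width was 376 bp and 302 bp.

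On chromosome 1, 3 names each occurred in 2 intervals, and which step cut them was not examined. They were the one in the largest cluster given above, one on the short arm at chr1:64640322-64640461 and chr1:64641432-64642069 (fold 3.75, score 22), and one in the stretch at chr1:237194761-237194926 and chr1:237195716-237195955 (fold 3.39, score 26). At the other end of the width range, 8 intervals were shorter than 100 bp. The narrowest was 9 bp.

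Set beside other parts of the list, the 2 parts of chromosome 1 had different counterparts. Chromosome 2, of similar length, had 153 peaks at 0.629 per Mb, a median fold of 3.65, a median width of 300 bp and a median estimated expected coverage of 2.23. Its calls ran at 15.5 to 15.7 per Mb. The rest of chromosome 1 had 0.714 per Mb, 3.65, 302 bp and 2.26, with calls at 15.3 to 15.4 per Mb before the stretch. These values lie close together, and their differences were not tested.

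The dense stretch stood beside the dense segments of chromosomes 19 and X, which were also picked for their density. From 28 to 45 Mb of chromosome 19 there were 138 peaks at 8.12 per Mb, with a median fold of 3.32 and a median width of 447 bp. From 62 Mb to the end of chromosome X there were 623 at 6.68 per Mb, with a median fold of 3.23 and a median width of 425 bp. The stretch of chromosome 1 had a median fold of 3.41 (95% interval 3.30 to 3.53) and a median width of 376 bp (347 to 415 bp). The intervals of the other medians were 3.24 to 3.38 and 3.21 to 3.26 for fold, and 423 to 519 bp and 397 to 458 bp for width. Estimated expected coverage had a median of 3.67 on chromosome 19 and 3.52 on X, against 3.24 in the stretch. Called peaks ran at 66.1 to 71.9 per Mb, 74.5 to 75.05 per Mb and, in the stretch, 62.7 to 64.1 per Mb. Of these calls, 11.2% to 12.2% were kept in the segment of chromosome 19, 8.84% to 8.91% in that of X and 9.80% to 10.03% in the stretch. Scores of 30 or more made up 28.6% of the stretch (21.1 to 37.0%), 26.1% of the segment of chromosome 19 (18.99 to 34.2%) and 14.3% of that of X (11.6 to 17.3%). These differences were not tested.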

How the data were processed

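Per the series' design text, the deposited list was made from the even and odd pools together. The submitters' processing notes name hg19 and, with no version, the tools MACS2, Bowtie2, deepTools and bedtools (parameters: not given in the sources used here). By its title, the list is an intersection of the peaks of 2 replicates with a high-score filter at 15 and a step on blacklisted regions. Its deposited score was 10 times the −log10 q rounded down in all 3227 rows, with 16 as the lowest. The other deposited columns were read, from their values and order, as the authors' fold (a ratio), −log10 p and −log10 q (p-value and q-value). Depth at each peak is unknown.

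Members and settings were chosen with earlier results of these data known. Peaks on chromosome 1 were counted by arm (split at 125 Mb), in bins of 5 Mb and 1 Mb by midpoint, and in the dense stretch, set at 224 to 245 Mb. Counts carry exact Poisson or exact binomial (Clopper-Pearson) 95% intervals, medians exact order-statistic ones. Chromosome totals were tested against standard hg19 lengths, gaps included, with a two-sided exact binomial test adjusted over 24 chromosomes. Gene shares came from RefSeq's GRCh38.p14 table, by chromosome alone. Peaks named are the 10 highest scores, the 5 widest, the 5 lowest folds, those at the stretch's edges and the 3 largest clusters (ties by shortest span, a rule set after their values were seen). Pieces of 1 name were joined for gaps and clusters. Positions count from 1. Statistics were tested on simulated data. Alternatives were stricter scores, merging, other edges, other cluster rules and parts left out. Software was scipy 1.17.1, matplotlib 3.10.9, pandas 2.3.3 and numpy 2.4.6 under Python 3.11.15.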

Additional observations from a re-analysis of the deposited data

How the results depend on the processing

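Of 41 values under alternatives, 24 kept their direction and size or side of the threshold. The ratio of chromosome 1 to its length share was 1.12 without chromosome Y (no longer past the threshold), 0.71 without the dense stretch, 0.891 against the share of protein-coding genes, and 0.891 without both that stretch and chromosome X, which was chosen after seeing the data. It passed in the other 5 alternatives, at 1.14 to 1.53. Long over short arm was 0.845 without the stretch and 1.97 to 2.47 under the other 6 alternatives. Stretch over rest was 13.3 at scores of 30 or more and 6.67 against the 20 Mb before it, and the stretch's share of peaks was 55.1% at scores of 30 or more. Median folds in the stretch and on the rest were 3.10 and 3.37 at scores of 16 to 18, and 4.07 and 4.38 at 30 or more. Fold rises with score, so the shift of each median with the score setting is by construction. Median width in the stretch was 421.5 bp at scores at or above the list's median. The share of peaks in clusters was 1.37% with a gap of 20 kb, 23.5% with 100 kb, 3.07% with 4 or more peaks and 3.98% at scores at or above the median. Where no construction shows it, the cause was not tested. Leaving out a replicate could not be run, since the deposited intersection merges them. No paired analysis was possible because single samples have no values. Bases outside assembly gaps were not counted, so densities near the centromere are lower limits.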
